A study of Mus musculus with 6 samples.

Results

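The Hist1h genes are the mouse replication-dependent histone genes whose names begin with Hist1h. They were taken by name from the deposited gene table, in which a gene is a transcript name without its trailing number, and this gave 55 of 24661 genes. By class they are 6 genes for the linker histone H1 and, for the core histones, 14 for H2A, 15 for H2B, 9 for H3 and 11 for H4. In the GENCODE M21 annotation of GRCm38, the same assembly as the mm10 build of the submitters' notes, all 55 lie on chromosome 13. The name of 1 of them, Hist1h2al, belongs there to a processed pseudogene, so it was kept by the rule but is no replication-dependent histone gene in that annotation.

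RNA from the whole olfactory mucosa, which holds the olfactory epithelium and the tissue around it, was sequenced for 3 wild-type and 3 RTP1,2DKO mice at postnatal day 21. All were of the C57BL/6 strain per the labels. Rtp1 and Rtp2 encode accessory proteins that help odorant receptors reach the cell surface, and in RTP1,2DKO mice a loxP site stands in place of the Rtp1 coding region and a puromycin cassette in place of that of Rtp2. The alleles were made in 129/B6 hybrid embryonic stem cells (EF-1) and kept by crossing to C57BL/6, so the mutants may carry 129 sequence near the targeted genes, and the methods describe 2 males and 1 female as sex matched littermates.

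Core histones form the spool around which DNA is wrapped, and H1 binds where the DNA enters and leaves it. Replication-dependent histone genes are transcribed mostly in S phase, when new DNA must be packaged, and most of their mRNAs end in a conserved stem-loop bound by SLBP instead of a poly(A) tail. Some of the same genes also give longer polyadenylated transcripts, which are known from differentiated cells that no longer divide. In the olfactory mucosa the dividing cells include the globose basal cells, which renew the sensory neurons.

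The stem-loop is the feature that sets these mRNAs apart, so its forms among the members are shown. Searching the GENCODE M21 transcripts of all members for the histone stem-loop found it in 35 of 55 genes, as 5 sequences. Capitals mark the 2 arms of the stem, of 6 bases each, and lower case the loop of 4 bases. The form of Hist1h2ap was found in 20 members, among them Hist1h2ao and Hist1h2ac. That of Hist1h4m was found in 6 H4 members with Hist1h4n, that of Hist1h3c in 6 members of the H1, H2B and H3 classes, that of Hist1h4b also in Hist1h4j, and that of Hist1h4i in no other member.
Hist1h2ap: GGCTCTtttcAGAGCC
Hist1h4m: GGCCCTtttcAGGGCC
Hist1h3c: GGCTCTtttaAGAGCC
Hist1h4b: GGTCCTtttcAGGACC
Hist1h4i: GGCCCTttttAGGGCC

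Of the 20 members without a match, 11 have GENCODE transcripts that all end at the stop codon, so that the models leave out the part where the stem-loop would lie. The other members without a match include Hist1h2bc, whose only GENCODE transcript has 2 exons and runs 742 bases past the stop codon, and Hist1h2bq and Hist1h2br, whose longest have 3 exons. These 3 H2B genes held most of the reads described below.

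In 11 pairs, members start in opposite directions with 175 to 305 bases between their GENCODE starts, each pair an H2A and an H2B gene. Sequence from between the starts is shown for the pair with the most abundant member, Hist1h2ac and Hist1h2bc (chr13:23683949-23684198), and for the pair with the member that changed, Hist1h2ap and Hist1h2br (chr13:21833508-21833725). Both are RefSeq promoter sequence of GRCm38.p6, given on the minus strand so that they read toward the H2A gene, and the window of the second stops short of the Hist1h2br start. Capitals mark the CCAAT box (its letters are CCAAT), the TATA box (TATAAA) and the octamer (ATTTGCAT) on either strand, none of which overlap here.
Hist1h2ac and Hist1h2bc: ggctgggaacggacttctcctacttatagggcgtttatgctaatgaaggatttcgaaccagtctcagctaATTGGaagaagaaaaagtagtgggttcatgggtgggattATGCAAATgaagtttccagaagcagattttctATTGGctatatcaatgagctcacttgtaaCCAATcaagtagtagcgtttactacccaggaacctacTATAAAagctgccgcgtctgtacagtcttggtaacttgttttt
Hist1h2ap and Hist1h2br: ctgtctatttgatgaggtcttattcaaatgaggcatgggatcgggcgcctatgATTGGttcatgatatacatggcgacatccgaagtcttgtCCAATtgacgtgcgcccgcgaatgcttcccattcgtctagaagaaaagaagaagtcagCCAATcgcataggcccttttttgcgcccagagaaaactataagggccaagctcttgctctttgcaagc
The first sequence holds CCAAT 3 times, TATAAA and the octamer, and the second holds CCAAT 3 times and neither of the others. Among the 52 members with a promoter in the RefSeq table, windows of 300 bases held CCAAT in 84.6%, TATAAA in 59.6% and the octamer in 21.2%, against 37.4%, 13.6% and 1.74% of all 32851 promoters there. By class, the octamer was found in 5 of 13 H2A and 6 of 15 H2B promoters and in no H1, H3 or H4 promoter, and CCAAT in 3 of 11 H4 promoters and in every promoter of the other classes.

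Deposited totals ran from 31125410 to 41636996 estimated counts per mouse. The Hist1h genes took between 0.00457% and 0.00689% of them, 1548 to 2696 estimated counts. Rtp1 fell from 13543 to 25301 normalized counts in wild-type to between 85.5 and 109 in RTP1,2DKO, and Rtp2 from 7157 to 9511 to between 26.2 and 58.0, so each library matched its label. A normalized count is the estimated count divided by the library's size factor. The labels name a KAPA stranded kit and the study's methods an Illumina stranded kit, and whether libraries were made by poly(A) selection or by removing ribosomal RNA is not given in the sources used here. Whether stem-loop mRNAs are captured is known to depend on that step, and the deposited effective lengths add a further limit. They imply a mean fragment of 556 bases, longer than the median member transcript of up to 1000 bases (469.5 bases, effective length 70.6). In these whole-tissue libraries fewer cells of a type and less RNA per cell cannot be told apart.

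At least 1 estimated count was found for 24, 26 and 29 members in the wild-type mice and for 38, 30 and 29 in the RTP1,2DKO mice. At least 10 counts were found for 12, 13 and 12 members against 18, 17 and 17. The groups met at 29 members at the lower limit and did not overlap at the higher one. Over all genes the numbers at 10 counts were 17946 to 18175 in wild-type and 18091 to 18180 in RTP1,2DKO mice, which overlap. These limits are on counts not adjusted for depth. The RTP1,2DKO mouse with most members detected had the lowest total of the 6, and the other RTP1,2DKO mice, with 17 members each at 10 counts, had the highest totals (41636996 and 38344360, against 33275526 to 34121193 in wild-type). The part of depth in these numbers was not tested. Across the 6 mice, 15 members had at least 1 count in every mouse, 9 had at least 10 in every mouse and 7 were at 0 in every mouse (Hist1h2aa, Hist1h2ag, Hist1h2ah, Hist1h2ba, Hist1h2bk, Hist1h2bl and Hist1h3b). Hist1h2aa and Hist1h2ba are known from the testis. At least 1 count was found for 13 members in RTP1,2DKO mice alone (Hist1h1a, Hist1h2ab, Hist1h2ai, Hist1h2an, Hist1h2ap, Hist1h2bb, Hist1h2bn, Hist1h3a, Hist1h3f, Hist1h3h, Hist1h4d, Hist1h4f and Hist1h4m) and for Hist1h2ak and Hist1h2bf in wild-type mice alone. All of these except Hist1h2ap reached 1 count in only 1 or 2 mice, as with Hist1h2ab, which had 14.9 normalized counts in 1 RTP1,2DKO mouse and 0 in the other 5 mice. A total of 0 counts in a library allows up to 3 counts at this depth, a limit that covers counting error only, so these genes were not detectable and were not shown to be off. Over all genes, at least 1 count was found for 20354 to 20438 in wild-type and 20396 to 20694 in RTP1,2DKO mice. How many of all genes were found in 1 genotype alone was not counted. The 13 and 2 members therefore have no background and are no result about the Hist1h genes.

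In the comparison of RTP1,2DKO with wild-type, Hist1h2ap was the only Hist1h gene called higher, and none was called lower. It went from 0, 0 and 0.952 estimated counts in the wild-type mice to 20.8, 27.4 and 24.8 in the RTP1,2DKO mice. The most abundant member, Hist1h2bc, and the linker histone genes did not pass the test. Of the 48 members with a rounded count in some mouse, 1 passed an adjusted p of 0.05, against 3.61% of all 22152 genes tested (799 genes) and 1.54% of those not named as odorant receptors (Olfr). Higher in RTP1,2DKO were 0.460% of all genes (102 genes, or 196 with the replicate number as a block) and lower 3.15%. At an unadjusted p under 0.05 in edgeR, which 11.8% of all genes reached, there were 2 members, both higher, and DESeq2 also called only Hist1h2ap. Since Hist1h2ap has nearly all its sequence in common with Hist1h2ao, its call has to be read with the sums given below.

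The fitted log2 fold changes of the 48 members were above 0 for 38 of them, with a median of 0.56, against a median of 0.02 and 52.6% above 0 for all genes tested. Of these members 32 had a mean under 10 normalized counts, where single reads set the fitted value. Among the 16 members with a mean of at least 10 over the 6 mice the median was 0.26, with 12 above 0, beside 0.01 for the 18136 genes at that level. Of the 16, Hist1h2ap (0.350 in wild-type), Hist1h2ao (9.10) and Hist1h4k (9.33) reached that mean only through the RTP1,2DKO mice. Hist1h2ae (7.45 in RTP1,2DKO) reached it only through the wild-type mice. The 48 and the 16 both hold the pseudogene Hist1h2al, and Hist1h2bq and Hist1h2br as separate members, though these are 1 measurement with a fitted value of 0.26. Members listed at 0 in all mice of 1 genotype have a fitted value that depends on the prior count. With 10 of them set at the bound that 3 counts over the group allow and 4 left out because both genotypes were at or under that bound, the median was 0.52. Normalized counts of the genotypes did not overlap for 2 members that were higher (Hist1h2ap and Hist1h2bp) and 1 that was lower (Hist1h1t), beside 7.20% and 9.25% of all genes.

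**Figure D1:**
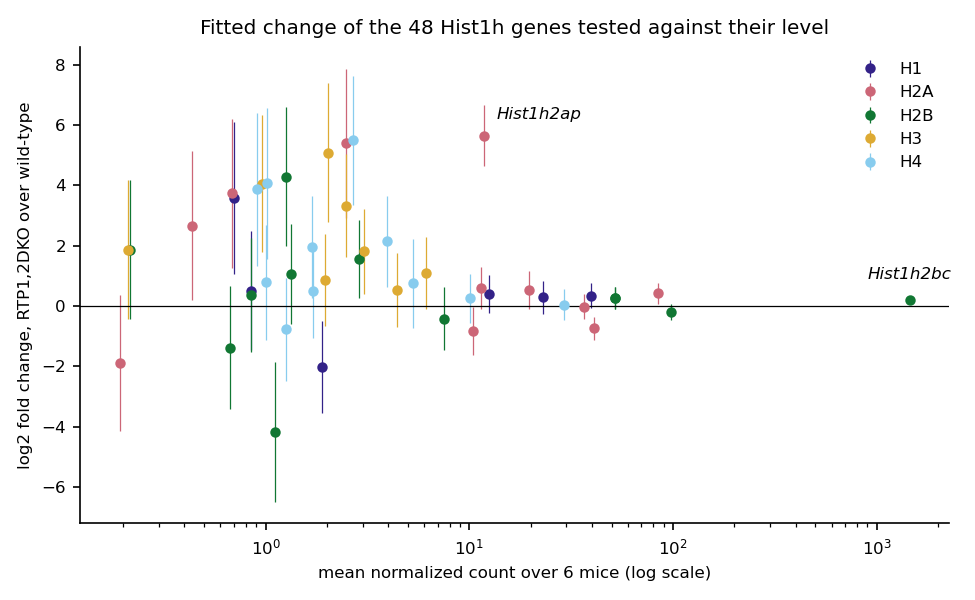
Each point is 1 of the 48 Hist1h genes tested, coloured by histone class, with its mean normalized count over the 6 mice on a log axis and its fitted log2 fold change (RTP1,2DKO over wild-type) with the standard error as a bar. Hist1h2ap stands at 5.65 with a standard error of 1.01, Hist1h2bc lies far to the right at 0.21, and most large values belong to genes with a mean under 10.

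Summed over the 55 members, normalized counts were 1602, 2008 and 2047 in wild-type and 2259, 2351 and 1987 in RTP1,2DKO mice. The means were 1886 ± 247 (SD, n = 3) and 2199 ± 189, a ratio of 1.17, and the genotypes overlapped. Without Hist1h2bc the sums were 454 to 628 and 591 to 677, which also overlapped. The sums are descriptions with no test.

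**Figure D2:**
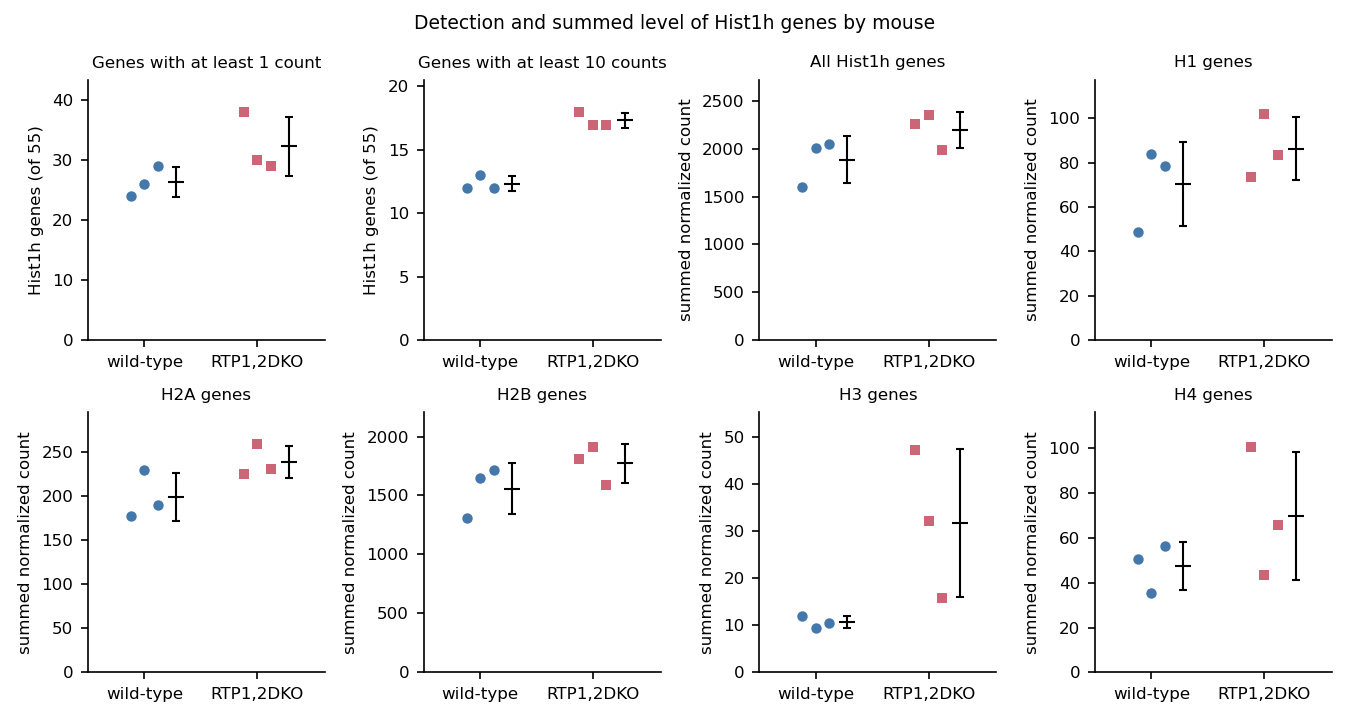
Points are single mice (circles wild-type, squares RTP1,2DKO), with the mean and SD of each group beside them, for the number of Hist1h genes with at least 1 and at least 10 estimated counts and for the summed normalized count of all Hist1h genes and of each class. The genotypes are apart for genes with at least 10 counts (12 to 13 against 17 to 18) and for the H3 sum, and overlap in the other panels.

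The 6 linker histone genes, whose proteins bind the DNA between nucleosomes, summed to 48.6, 84.0 and 78.3 normalized counts in wild-type and 73.8, 102 and 83.3 in RTP1,2DKO mice. Nearly all of it came from Hist1h1c, Hist1h1e and Hist1h1d, which are linker histones of many tissues. Hist1h1c had 28, 43.6 and 33.3 against 23.9, 59.7 and 47.9 normalized counts, a log2 fold change of 0.34 (SE 0.42, adjusted p = 0.840 in edgeR). The highest and the lowest value were both in RTP1,2DKO mice. Hist1h1e ranged from 8.49 to 33.0 in wild-type and from 24.0 to 26.3 in RTP1,2DKO mice (log2 fold change 0.29), and Hist1h1d from 8.02 to 14.2 and from 10.4 to 16.3 (0.41). Hist1h1a, a linker histone of dividing cells, was at 4 estimated counts in 1 RTP1,2DKO mouse and 0 elsewhere, and Hist1h1b was at 2 counts in 1 wild-type mouse and 3 in 1 RTP1,2DKO mouse. Hist1h1t, the testis linker histone, had 4.14, 2.86 and 2.21 normalized counts in wild-type and 2.11, 0 and 0 in RTP1,2DKO mice (log2 fold change -2.03, SE 1.53, adjusted p = 0.720 in edgeR).

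The 14 H2A genes summed to 177, 229 and 190 normalized counts in wild-type and 225, 259 and 230 in RTP1,2DKO mice, a ratio of 1.20 with overlapping values. Hist1h2af was the most abundant of them, with 38.2, 106 and 71.6 against 86.8, 97.1 and 105 (log2 fold change 0.41, SE 0.34). Its wild-type values spanned the RTP1,2DKO ones. Reads are assigned by 31-base words, and of those in the GENCODE Hist1h2af transcript 85.9% occur in Hist1h2ad and 5.69% in no other gene. The Hist1h2af level thus depends on how shared reads were divided. Hist1h2ac, an H2A gene that shares its promoter region with Hist1h2bc, had 49.9, 69.0 and 34.3 in wild-type and 31.9, 34.7 and 24.8 in RTP1,2DKO mice (log2 fold change -0.74, SE 0.39, unadjusted p = 0.0796, adjusted p = 0.524 in edgeR). The lowest wild-type mouse lay just below the highest RTP1,2DKO mouse. Hist1h2ad (log2 fold change 0.53) and Hist1h2ae (-0.84) did not pass the test either, and their genotypes overlapped. They share sequence as well, with 31.7% and 52.1% of their words in no other gene. Hist1h2al, the pseudogene, had 30.2 to 44.6 and 21.5 to 48.8 normalized counts on a transcript of 2983 bases.

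Hist1h2ap encodes a core histone H2A and lies at chr13:21833026-21833507 on the minus strand, as a single exon in GENCODE M21. Its normalized counts were 0, 0 and 1.05 in wild-type and 21.9, 23.9 and 24.3 in RTP1,2DKO mice. All 3 RTP1,2DKO mice were close to each other and far above all 3 wild-type mice. In edgeR the log2 fold change was 5.65 (SE 1.01, adjusted p = 0.00566). With 1 rounded count in the wild-type mice and 73 in the RTP1,2DKO mice, the ratio of normalized counts was 68.4, with an exact 95% interval of 11.9 to 2740 that covers counting error only.

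**Figure D3:**
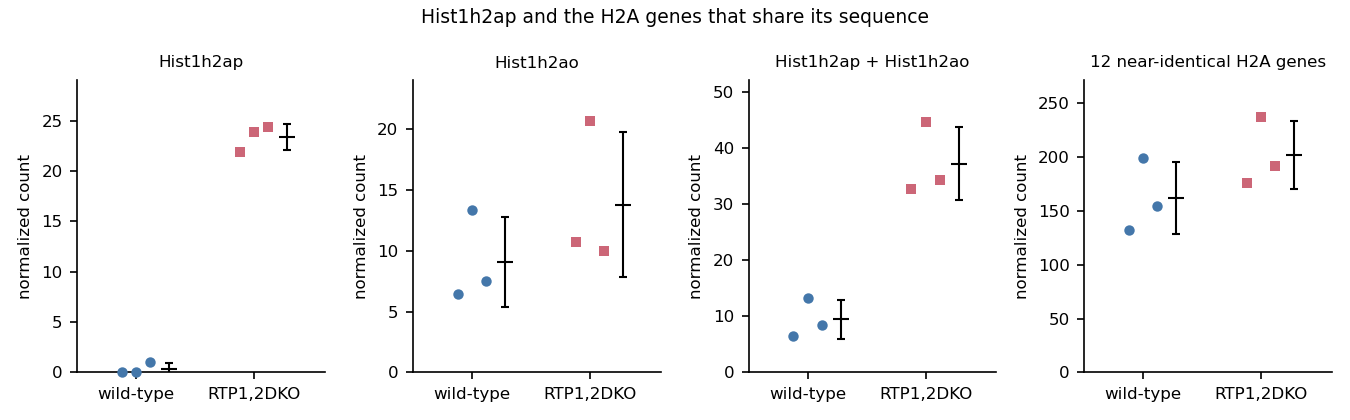
Normalized counts by mouse (circles wild-type, squares RTP1,2DKO, with the mean and SD of each group beside them) of Hist1h2ap, of Hist1h2ao, of both together, and of the 12 H2A genes linked by at least 50% of their 31-base words. The genotypes are apart for Hist1h2ap and for the pair, and overlap for Hist1h2ao and for the 12 genes.

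Hist1h2ap has little sequence of its own. Its GENCODE transcript of 482 bases and the Hist1h2ao transcript of 480 bases (chr13:21810465-21810944, plus strand) share an unbroken run of 452 identical bases, from base 31 of the Hist1h2ap transcript to its end, with the stop codon and the stem-loop printed above. The deposited transcripts are 452 bases long for Hist1h2ap and 552 for Hist1h2ao, the same lengths as the RefSeq models, and 450 of the 452 bases of the RefSeq Hist1h2ap model lie in the shared run, all of which lies in the RefSeq Hist1h2ao model. The tool kallisto assigns reads by 31-base words and divides reads that fit several transcripts by an iterative estimate. Of the 452 such words in the GENCODE Hist1h2ap transcript, 30 occur in no other gene, and 93.4% occur in Hist1h2ao. The 30 all begin before the shared run, at bases that the RefSeq Hist1h2ap model (chr13:21833024-21833475) leaves out. If the deposited transcript has the RefSeq sequence, it holds none of the 30. The estimated counts of Hist1h2ap and Hist1h2ao are therefore uncertain one against the other. Little sequence of its own is not particular to Hist1h2ap. In GENCODE, words found in no other gene made up 6.64% for Hist1h2ap, 5.69% for Hist1h2af, 5.77% for Hist1h3h and 1.74% for Hist1h2bq. Other members had more, up to 100% for Hist1h1t.

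Hist1h2ao had 6.48, 13.3 and 7.48 normalized counts in wild-type and 10.7, 20.7 and 9.97 in RTP1,2DKO mice (log2 fold change 0.59, SE 0.69, adjusted p = 0.840 in edgeR), and its genotypes overlapped. Together, Hist1h2ap and Hist1h2ao had 6.48, 13.3 and 8.53 in wild-type and 32.6, 44.6 and 34.3 in RTP1,2DKO mice, without overlap and with a ratio of 3.94. When members that share at least 90% of their 31-base words were summed before the edgeR fit, the pair had a log2 fold change of 1.95 with an adjusted p of 0.0551, and no member feature was called. When the limit was 50%, Hist1h2ap fell in a group of 12 H2A genes. That group had 133, 199 and 155 normalized counts in wild-type and 176, 237 and 192 in RTP1,2DKO mice, with a log2 fold change of 0.31 and an adjusted p of 0.689 in edgeR. The 10 genes of the group other than Hist1h2ap and Hist1h2ao had 126 to 186 in wild-type and 144 to 193 in RTP1,2DKO mice, which overlapped, with a ratio of 1.08. What part the division of shared reads had in the call of Hist1h2ap was not tested.

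The 15 H2B genes carried most of the Hist1h reads, 1313, 1650 and 1713 normalized counts in wild-type and 1813, 1915 and 1592 in RTP1,2DKO mice. Hist1h2bc (chr13:23684199-23692908, plus strand) alone held 69.3% to 73.2% of all Hist1h counts. It had 1148, 1469 and 1419 normalized counts in wild-type and 1588, 1674 and 1397 in RTP1,2DKO mice. The lowest RTP1,2DKO mouse lay below 2 of the wild-type mice, and the log2 fold change was 0.21 (SE 0.13, adjusted p = 0.641 in edgeR). Per effective length Hist1h2bc stood at 170 to 285 TPM and Hist1h2af, the next by TPM in 5 of 6 mice, at 18.9 to 55.5.

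**Figure D4:**
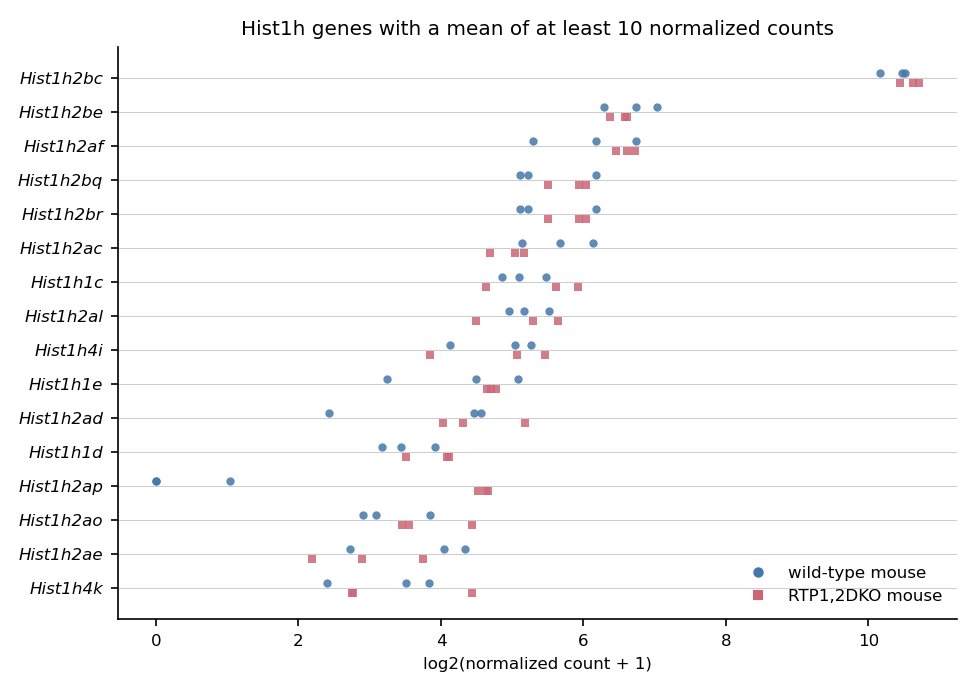
Each row is 1 of the 16 Hist1h genes with a mean of at least 10 normalized counts, and each point 1 mouse (circles wild-type, squares RTP1,2DKO) on a scale of log2(normalized count + 1). Hist1h2bc lies above all others in every mouse, and only in the row of Hist1h2ap do the genotypes separate.

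The reads of Hist1h2bc, Hist1h2bq and Hist1h2br were assigned wholly to their longer transcripts. For Hist1h2bc every count in all 6 mice was on the transcript of 728 bases and none on that of 469 bases. Hist1h2bq and Hist1h2br each had all counts on a transcript of 2121 bases and none on one of 459 bases. The longer ones had the same length and the same estimate in every mouse (35.0, 35.0 and 64.6 in wild-type, 57.3, 74.2 and 45.1 in RTP1,2DKO), as reads that fit both equally are split evenly, so these genes are 1 measurement. Hist1h2be had 72.9% of its counts on a transcript of 2509 bases, 25.4% on one of 2483 bases and 1.66% on one of 445 bases, with normalized counts of 77.5 to 130 in wild-type and 81.8 to 96.5 in RTP1,2DKO mice (log2 fold change -0.20, SE 0.27). Hist1h2bp had 92.7% of its counts on a transcript of 624 bases, with 0, 3.30 and 1.20 normalized counts in wild-type and 3.58, 3.46 and 5.68 in RTP1,2DKO mice (adjusted p = 0.758 in edgeR), which did not overlap at this low level. Transcripts over 1000 bases held 10.1% to 15% of Hist1h counts, and with the 728-base transcript of Hist1h2bc the share was 80.7% to 84.3%, with 83.3% to 84.3% in wild-type and 80.7% to 81.9% in RTP1,2DKO mice.

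The 9 H3 genes had few reads. Their sums were 12, 9.53 and 10.5 normalized counts in wild-type and 47.3, 32.3 and 15.9 in RTP1,2DKO mice, the only class sum whose genotypes did not overlap, with a ratio of 2.98. In TPM the H3 sums were 5.58, 4.74 and 3.42 in wild-type and 19.7, 10.9 and 5.07 in RTP1,2DKO mice, which overlapped. All 8 H3 genes tested had a fitted log2 fold change above 0 (median 1.83) and none was called. Hist1h3h was at 0 in every wild-type mouse and at 10.5, 0 and 1.62 in RTP1,2DKO mice (adjusted p = 0.425 in edgeR). With wild-type set at 3 counts over the group it was 3.75-fold higher, a value that leaves out the spread of the RTP1,2DKO mice. In GENCODE, Hist1h3h shares 85.3% of its 31-base words with Hist1h3i. That gene had 2.18, 3.18 and 5.27 in wild-type and 9.73, 0 and 6.06 in RTP1,2DKO mice. What part the division of shared reads had in the Hist1h3h values was not tested. Hist1h3g had 7.33, 1.06 and 3.45 in wild-type and 11.9, 13.2 and 0 in RTP1,2DKO mice. No H3 gene was higher than every wild-type mouse in all 3 RTP1,2DKO mice, and the first RTP1,2DKO mouse had the highest sum.

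The 11 H4 genes summed to 50.7, 35.3 and 56.2 normalized counts in wild-type and 100.3, 43.6 and 65.7 in RTP1,2DKO mice, with overlap. The most abundant, Hist1h4i, had 31.8, 16.5 and 37.3 against 42.9, 13.4 and 32.4 (log2 fold change 0.04, SE 0.52). Hist1h4m was at 0 in every wild-type mouse and at 7.97, 8.23 and 0 in RTP1,2DKO mice, with an unadjusted p of 0.0270 and an adjusted p of 0.310 in edgeR. With wild-type set at 3 counts over the group it was 5.31-fold higher, a value that leaves out the spread of the RTP1,2DKO mice. It shares 91.7% of its 31-base words with Hist1h4n, which lies near Hist1h2ap on the same strand and had 3.18, 0 and 1.91 in wild-type and 0, 0 and 2.48 in RTP1,2DKO mice. Their sums, 0 to 3.18 and 2.48 to 8.23, overlapped.

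Members that start back to back were compared as pairs. Of the 11 pairs, both genes were tested in 7 and both had a mean of at least 10 normalized counts over the 6 mice in 3. Hist1h2ap and Hist1h2ao reached that mean only through the RTP1,2DKO mice. In these 3 the H2A and H2B genes stood at 51.1 and 1345 (Hist1h2ac and Hist1h2bc), 9.10 and 46.9 (Hist1h2ao and Hist1h2bq) and 0.350 and 46.9 (Hist1h2ap and Hist1h2br) normalized counts on average in wild-type mice. In RTP1,2DKO mice the averages were 30.5 and 1553, 13.8 and 56.4, and 23.4 and 56.4. Hist1h2bq and Hist1h2br had the same estimate in every mouse, so the pairs of Hist1h2ao and Hist1h2ap hold the same H2B value. That value, with log2 fold change 0.26 (SE 0.38), did not pass the test and does not separate Hist1h2br from Hist1h2bq. Whether Hist1h2br itself changed next to Hist1h2ap could therefore not be told.

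Other histone genes and the machinery of histone mRNA were read from the same edgeR fit. None of the 13 replication-dependent genes outside the Hist1 set that were tested was called (2 at an unadjusted p under 0.05, none in DESeq2), with a median log2 fold change of 0.34. Hist2h2be, which encodes an H2B known from olfactory sensory neurons, had 19693, 19889 and 16064 normalized counts in wild-type and 22404, 21044 and 19494 in RTP1,2DKO mice (log2 fold change 0.18, adjusted p = 0.700), far above the sum of all Hist1h genes, and Hist3h2a had 176 to 240 and 205 to 254. Of the 12 replication-independent variants, which are made outside S phase too, none was called (3 at an unadjusted p under 0.05, none in DESeq2), with a median of 0.23. The most abundant of them were H3f3a (log2 fold change 0.17) and H3f3b (-0.03). Of 23 factors for histone mRNA processing and transcription none was called (none at an unadjusted p under 0.05, none in DESeq2), and the median was -0.03. Slbp, the stem-loop binding protein, had 2498 to 3958 normalized counts in wild-type and 3848 to 4121 in RTP1,2DKO mice (log2 fold change 0.32, adjusted p = 0.460). Yy1, the other most abundant of them, stood at -0.07 and Npat, the activator of histone gene transcription, at 0.08.

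**Figure D5:**
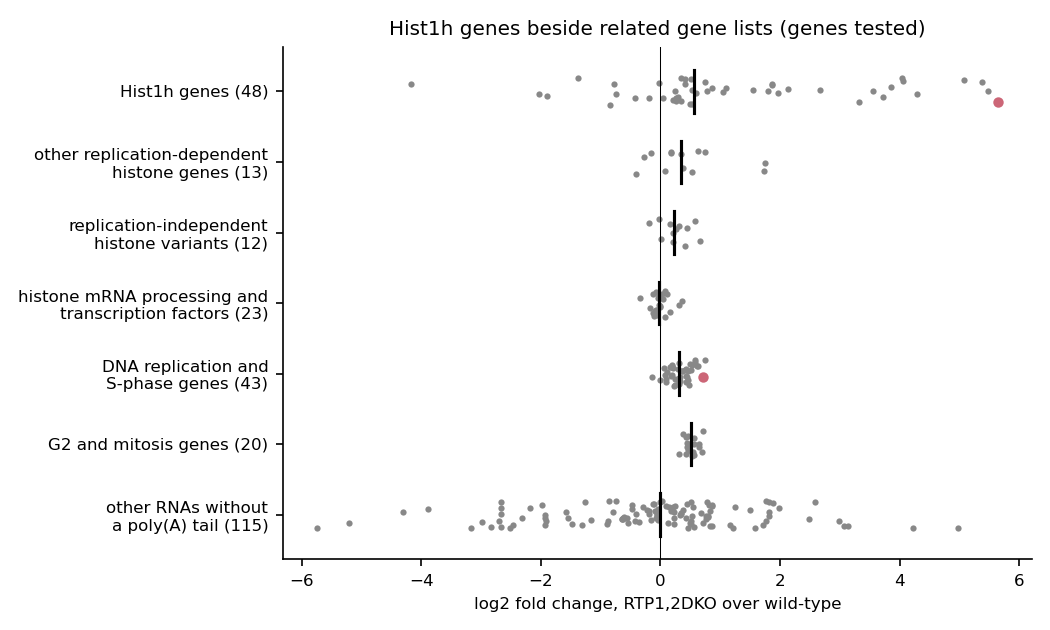
Each point is the fitted log2 fold change (RTP1,2DKO over wild-type) of 1 gene tested, with the number of genes in parentheses, red points for genes called at an adjusted p under 0.05, grey points for the others and black bars for medians. The Hist1h genes spread widely around a median of 0.56 with Hist1h2ap as the called gene, 41 of 43 S-phase genes and all 20 mitosis genes lie above 0, and other RNAs without a poly(A) tail spread to both sides of a median of -0.01.

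Genes of dividing cells were set beside the histone genes. Of 43 genes for DNA replication and S phase, 41 had a fitted value above 0 (median 0.31) and 1 was called, Mcm3, a subunit of the replicative helicase, with 287 to 362 normalized counts in wild-type and 493 to 570 in RTP1,2DKO mice (log2 fold change 0.71, adjusted p = 0.0190). At an unadjusted p under 0.05 there were 15. The count called was 2 with the replicate number as a block, and 0 with total count scaling, without wild-type mouse 3 or without RTP1,2DKO mouse 2. Rrm1 and Rrm2, subunits of ribonucleotide reductase, had 0.46 and 0.50 and did not pass. All 20 genes for G2 and mitosis had a value above 0 (median 0.52), and none was called by edgeR, against 16 at an unadjusted p under 0.05, 4 called by DESeq2 and 5 in edgeR with the block. Top2a had a log2 fold change of 0.52 (adjusted p = 0.0990), Kif11 0.44 (adjusted p = 0.118) and Mki67 0.56 (adjusted p = 0.147), with the highest Mki67 level, 2725 normalized counts, in the first RTP1,2DKO mouse. Of the 115 other RNAs known to lack a poly(A) tail that were tested, 57 had a value above 0 and none was called (4 at an unadjusted p under 0.05, none in DESeq2). The most abundant, Rnu6 and Snord49a, stood at -0.01 and -0.04. Their summed normalized counts were 883 to 1028 in wild-type and 926 to 1001 in RTP1,2DKO mice.

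Marker genes of cell types moved with genotype in these libraries. Summed markers of globose basal and neuronal precursor cells were at 5887 to 6638 normalized counts in wild-type and 7641 to 8374 in RTP1,2DKO mice, with 1 of 8 genes called (Hes6, higher) and none at 0. Markers of mature olfactory neurons fell, with 8 of 8 called lower and sums of 160761 to 185786 against 81208 to 87888. Markers of red cells and their precursors had 1 of 12 called (Hbb-bt, higher), with sums of 62803 to 103009 and 101537 to 185599. Their highest sum was in the first RTP1,2DKO mouse, which also had the most Hist1h genes detected and the highest H3 and H4 sums. That mouse also had the highest sums for precursor cells (8374), immature neurons (51459), bone and cartilage (219961) and mitosis genes (19169). Sums for S-phase genes and for mature neurons, horizontal basal, sustentacular, granulocyte, B and plasma, and T cells were highest in other mice. For immature neurons 2 of 7 were called higher and 1 lower, and for horizontal basal, sustentacular, granulocyte, B and plasma, T and bone and cartilage cells none of 5, 5, 12, 12, 6 and 10 tested. The part of these cell types in the Hist1h values was not tested.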

How the data were processed

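Reads were mapped by the authors with kallisto (version not given in the sources used here) to mouse transcripts from the UCSC browser with extended odorant receptor models, and the submitters' notes name mm10. The deposited files hold an estimated count, a TPM value (reads per effective length, scaled to a fixed total per mouse) and an effective length for each of 38041 transcripts and each mouse. Estimated counts were summed per gene and rounded. Genes with at least 1 rounded count in some mouse were tested by quasi-likelihood in edgeR (version 4.0.16, in R 4.3.3), since the study used edgeR, with median-of-ratios size factors (0.907 to 1.15), and p-values were adjusted by Benjamini-Hochberg over all 22152 genes, with a threshold of 0.05. DESeq2 1.42.0, other scalings and filters, each mouse left out, short transcripts only and sums of near-identical members (chosen after seeing the data) were alternatives. The fit was tested first on simulated counts, with log2 changes of -2, -1, 1 and 2 set only in genes with a mean of at least 10. It called 44, 31, 38 and 46 of 50 genes. The simulation did not divide reads among near-identical transcripts, so it covers neither that step nor changes in members under 10.

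The labels do not say that a mouse number marks a litter, but the methods describe sex matched littermates. The deviations from the group means of same-numbered mice correlated at 0.139, 0.179 and 0.103 over 18133 genes. Those of differently numbered mice lay between -0.219 and 0.0934, the highest close to the lowest same-numbered value. On this weak ground the fit with the replicate number as a block was read as a paired one.

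The members and lists were chosen with earlier results of these data known. Named were members past the threshold, Hist1h2ap, the 12 most abundant, the 3 largest increases and decreases with a mean of at least 10 normalized counts, all Hist1h1 genes and members with a transcript over 1000 bases, and, of each other gene list, called genes and the 2 most abundant, and of cell markers called genes only. Hist1h2ab, Hist1h3g, Hist1h3h, Hist1h4m, Hist1h4n, Hist1h2bp and the Npat and Mki67 genes were named after their values were seen. All 55 members matched a RefSeq gene and a GENCODE M21 gene by name and position. Of the genes listed, 6 have no row in the files.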

Additional observations from a re-analysis of the deposited data

How the results depend on the processing

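Hist1h2ap was the member called in each of the 12 planned fits beside the main one: its log2 fold change lay between 5.15 and 7.59 over the fits without 1 mouse, and was 5.68 in the paired fit with the replicate number as a block (adjusted p = 0.0149 in edgeR). The alternatives chosen after seeing the data ended that call: summing members that share at least 90% or 50% of their 31-base words gave 1.95 and 0.31, with 0 members called. Genes called higher, 102 in all, were 42 with total count scaling, 216 in DESeq2, 196 with the block and 52 to 132 without 1 mouse, with 52, 59 and 65 without RTP1,2DKO mouse 1, 2 and 3. Of the S-phase genes 0 were called with total count scaling, 2 in DESeq2, 2 with the block and 0 to 4 without 1 mouse (0 without wild-type mouse 3 or RTP1,2DKO mouse 2); of the mitosis genes 4 in DESeq2, 5 with the block and 0 to 3 without 1 mouse (1 without RTP1,2DKO mouse 3); of the replication-independent variants 0 to 2. Among the fits without 1 mouse, the most in all 3 lists were called without wild-type mouse 2. The median log2 fold change of members was 0.26 after edgeR's expression filter, which left 15, and 0.46 to 1.00 without 1 mouse, highest without wild-type mouse 3. Some members changed sign without 1 mouse. Hist1h1b lay between -2.69 and 3.17, Hist1h1e between -0.090 and 0.78, Hist1h2al between -0.30 and 0.24 and Hist1h4i between -0.33 and 0.40. Hist1h4i was -0.013 with the block and Hist1h2be 0.20 on short transcripts. The cause was not tested. In the 50% sums a gene takes the value of its group. That was 0.19 for Hist1h2be, whose group holds Hist1h2bc. It was 0.31 for the largest decreases at a mean of at least 10 counts, Hist1h2ae (-0.84) and Hist1h2ac (-0.74), whose group holds Hist1h2ap. These are not values of the genes themselves, and Hist1h2ac itself lay between -0.96 and -0.47 without 1 mouse. The other 231 values for named members kept their direction and their side of the threshold. At a limit of 10 counts, 12, 13 and 12 members were detected in wild-type and 18, 17 and 17 in RTP1,2DKO mice. That limit by construction finds no more members than a limit of 1 count. With the block 1012 genes were called and 816 of them lower, against 799 and 697, and no other count of the gene lists or call of a named member changed; the cell markers were not run with it. For 32 of 48 members a mean under 10 counts limits what can be seen.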
